A study of Mus musculus with 6 samples.

Results

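The genes of the cytosolic ribosome were described in cultured mouse ovary, with and without ISRIB. They were taken by symbol: every row that reads Rpl or Rps followed by a digit, with Rplp0, Rplp1, Rplp2, Rpsa and Fau, and without the ribosomal S6 kinases, rows named as pseudogenes and Rps19bp1. This gave 90 of 26329 genes. Of these, 43 encode proteins of the large subunit, 3 the P-stalk, 32 the small subunit and 12 are paralogs. The 78 genes that are not paralogs are called canonical here. Total RNA of whole ovary was sequenced in 3 libraries of ovaries cultured with the solvent DMSO (Control) and 3 of ovaries cultured with ISRIB. The authors' values are FPKM: reads per gene, divided by gene length and by the size of the library. ISRIB is a small molecule that binds the initiation factor eIF2B and relieves the brake which the integrated stress response puts on protein synthesis. The sources used here give no strain, age, dose or length of culture. It is also not stated whether replicates were separate animals or cultures. A p-value here sets the difference between the groups against the spread among the 3 libraries within each group, and that spread may be technical.

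A ribosome is built from ribosomal RNA and a fixed set of proteins, each present in a single copy except in the P-stalk. Most of their mRNAs begin with a run of pyrimidines, the 5′ terminal oligopyrimidine (TOP) motif, through which mTOR signalling and the RNA-binding protein LARP1 control their translation and storage. Growing oocytes make and store large amounts of ribosomes. The mouse genome carries many processed copies of these genes, some of them nearly identical in sequence to the parent.

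The start regions of the genes are shown first, because the TOP motif is a feature that the choice by symbol did not use. RefSeq promoters (GRCm38.p6, 250 bases before to 50 after each annotated start) were found for 69 of the 90 genes, 58 of them canonical and 11 paralogs. A run of at least 8 pyrimidines (C or T) on the sense strand lay within 10 bases before to 20 after the start in 24 of 58 canonical genes (41.4%). The share was 13% of 27025 genes with a promoter and 11.2% of 32851 promoters. A run that covered the first transcribed base was found in 18 canonical genes (31%) and in 4.59% of all genes. The first of these counts used only bases inside its window, so a run crossing the edge could be cut below 8 and missed. Rpl4 and Rps25 hold such runs and were counted as without one. The starts are those annotated and were not checked in these libraries. The first lines print 40 bases before to 20 after the start, 5′ to 3′, for a canonical gene with a long run (Fau), the gene of highest level in the set (Rpl28), genes described below and the paralog Rpl22l1. Capitals mark the pyrimidine run.
Fau (chr19:6057907-6057966, plus strand): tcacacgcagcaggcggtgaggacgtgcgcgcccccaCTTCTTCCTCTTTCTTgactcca
Rpl15 (chr14:18270967-18271026, minus strand): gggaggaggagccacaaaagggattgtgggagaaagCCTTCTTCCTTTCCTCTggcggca
Rpl28 (chr7:4792925-4792984, plus strand): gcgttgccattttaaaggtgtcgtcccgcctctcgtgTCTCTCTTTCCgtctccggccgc
Rpl38 (chr11:114668540-114668599, plus strand): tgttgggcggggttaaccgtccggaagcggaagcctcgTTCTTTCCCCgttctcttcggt
Rps6 (chr4:86857348-86857407, minus strand): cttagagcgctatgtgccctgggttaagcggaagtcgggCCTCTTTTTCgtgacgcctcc
Rps27 (chr3:90213629-90213688, minus strand): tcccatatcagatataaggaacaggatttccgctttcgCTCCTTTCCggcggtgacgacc
Rpl22l1 (chr3:28805468-28805527, plus strand): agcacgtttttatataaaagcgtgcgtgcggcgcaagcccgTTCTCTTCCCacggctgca
Counted with the first transcribed base as 1 and the base before it as −1, the run began at −3 in Fau (16 bases) and at −4 in Rpl15 (17 bases). It began at −2 in Rpl38 (10 bases) and, in Rpl22l1, at 2 (10 bases). The next lines show genes without such a run counted in the window: Rpl24, whose fold change is described below, and 4 paralogs. In Rps27l a run of at least 8 crossed the upstream edge of the window, and its bases inside the window were fewer than 8.
Rpl24 (chr16:55966235-55966294, plus strand): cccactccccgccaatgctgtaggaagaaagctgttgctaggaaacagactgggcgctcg
Rps27rt (chr9:114982720-114982779, minus strand): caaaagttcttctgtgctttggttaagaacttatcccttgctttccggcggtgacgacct
Rps27l (chr9:66946046-66946105, plus strand): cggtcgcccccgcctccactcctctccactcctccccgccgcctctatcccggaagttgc
Rpl10l (chr12:66284382-66284441, minus strand): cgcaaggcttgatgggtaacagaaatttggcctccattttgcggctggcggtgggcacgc
Rpl39l (chr16:10170188-10170247, plus strand): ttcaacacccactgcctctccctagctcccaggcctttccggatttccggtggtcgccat
The window of the retrogene Rps27rt shared a stretch of 19 bases with that of its parent Rps27, at the 3′ end of both windows, and the bases upstream of it differed. Between Rpl22l1 and Rpl22 the longest shared stretch was 6 bases, between Rpl39l and Rpl39 also 6, and between Rps27l and Rps27 it was 5.

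Other promoter motifs were counted over the whole 300 bases on both strands. CCGGAAG, a sequence bound by ETS factors such as GABPA, was found in 24 of 58 canonical genes (41.4%) and in 9.93% of all genes. AAGATGG, bound by YY1, was found in 10 (17.2%) against 7.28%, and GGGCGG, bound by SP1, in 36 (62.1%) against 38.2%. TATAAA was found in 6 canonical genes (10.3%) against 15.7% of all genes. Both the pyrimidine run and CCGGAAG were present in 12 genes, and in 1 gene the matches overlapped. The median log2 fold change between ISRIB and Control was 0.18 in the 24 genes with a counted run and 0.17 in the 34 without a counted run. For CCGGAAG the medians were 0.18 with a match and 0.18 without. These are descriptions of the sequence, with no test.

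The canonical genes were among the most abundant of the ovary. Their median level was 514.3 FPKM (mean of the 6 libraries, quartiles 325 and 810.7), against 10.26 for all genes tested, and 54 of the 100 genes with the highest FPKM were in the set. Levels lay within a factor of 2 of this median for 57 of the 78. The highest was Rpl28, a large subunit protein, with 1303 ± 52.1 FPKM in Control and 1469 ± 56.6 in ISRIB (SD, n = 3 each). Rpl41, the smallest protein of the ribosome, had 1291 ± 96.4 and 1327 ± 14.1. Rplp1 had 1168 ± 92.7 and 1334 ± 46.2, Rps26 1115 ± 57.9 and 1235 ± 20.3, and Rpl23a 1080 ± 58.6 and 1239 ± 25.6. The means of Rpl28 and Rpl41 in Control differed by less than their SD. Rpl28 was above Rpl41 in 5 of 6 libraries and above Rplp1 in all 6. Rplp1 was above Rps26 and Rpl23a in all 6 libraries. Rps26 and Rpl23a differed by less than an SD in either group, and their order is not resolved. Median levels by role were 411.8 FPKM in the large subunit, 552.8 in the small subunit, 875.9 in the P-stalk and 27.7 among the paralogs. Per length, the stalk proteins P1 and P2, present in more than a single copy per ribosome, were at 1168 and 615 FPKM in Control.

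**Figure D1:**
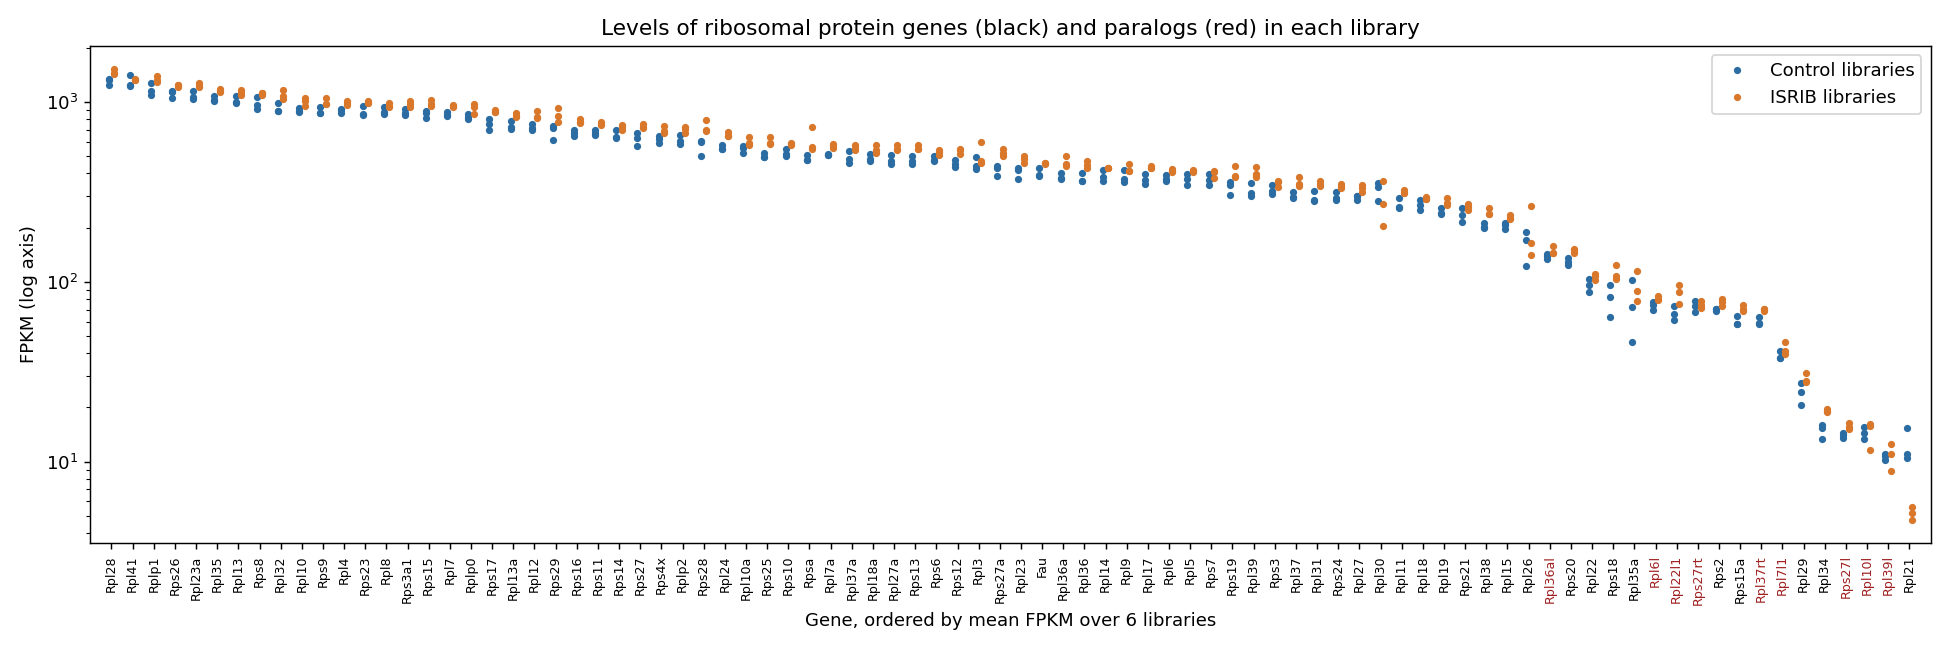
Level of each ribosomal protein gene with a mean FPKM of at least 1, in FPKM on a log axis, genes ordered by their mean over 6 libraries; points are single libraries, blue for Control and orange for ISRIB, and paralogs are named in red, with 1 gene not drawn. Of the 78 canonical genes 57 lie within a factor of 2 of the median of 514.3 FPKM, and Rpl29, Rpl34 and Rpl21 lie far below it among the paralogs.

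Canonical genes under 51.4 FPKM, which is the median divided by 10, were Rpl29, Rpl34 and Rpl21, all of the large subunit. Rpl29 had 20.6, 24.3 and 27.2 FPKM in the Control libraries and 27.9, 27.7 and 31.3 in the ISRIB libraries. Rpl34 had 13.3, 15.9 and 15.3 in Control and 19.6, 18.8 and 19.0 in ISRIB. Rpl21 had 10.45, 11.03 and 15.28 in Control and 4.72, 5.20 and 5.61 in ISRIB. Other genes that share sequence with each gene are given beside these levels, and their part in the levels was not tested. How the authors' counting treated reads with several matches is not stated in the sources used here.

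Copies were counted as other genes of GENCODE M21 (GRCm38) with a transcript that shares at least 1 window of 64 bases with the longest coding transcript of the gene. Since 1 window is enough, a gene counted in this way need not be nearly identical. Of the 78 canonical genes, 77 shared a window with another gene, and the median was 7 such genes. In the median gene 85.5% of the windows in the coding sequence were shared. Rpl7a shared windows with 95 genes, Rpl21 with 69 (68 of them annotated pseudogenes), Rpl29 with 62 and Rps2 with 60. Rpl21 (chr5:146832890-146837032, plus strand) shared 99.3% of its coding windows, and Rpl34 (chr3:130726831-130730398, minus strand) 65.5% with 8 genes. Rpl7a, which shared windows with more genes than Rpl21, had a mean of 538.8 FPKM. Across the 78 genes Spearman's rho between the number of sharing genes and FPKM was −0.265, and with the share of coding windows it was −0.0613. Both are descriptions over genes measured in the same libraries. The values of genes with shared windows are uncertain to the extent that their copies take or give reads.

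**Figure D2:**
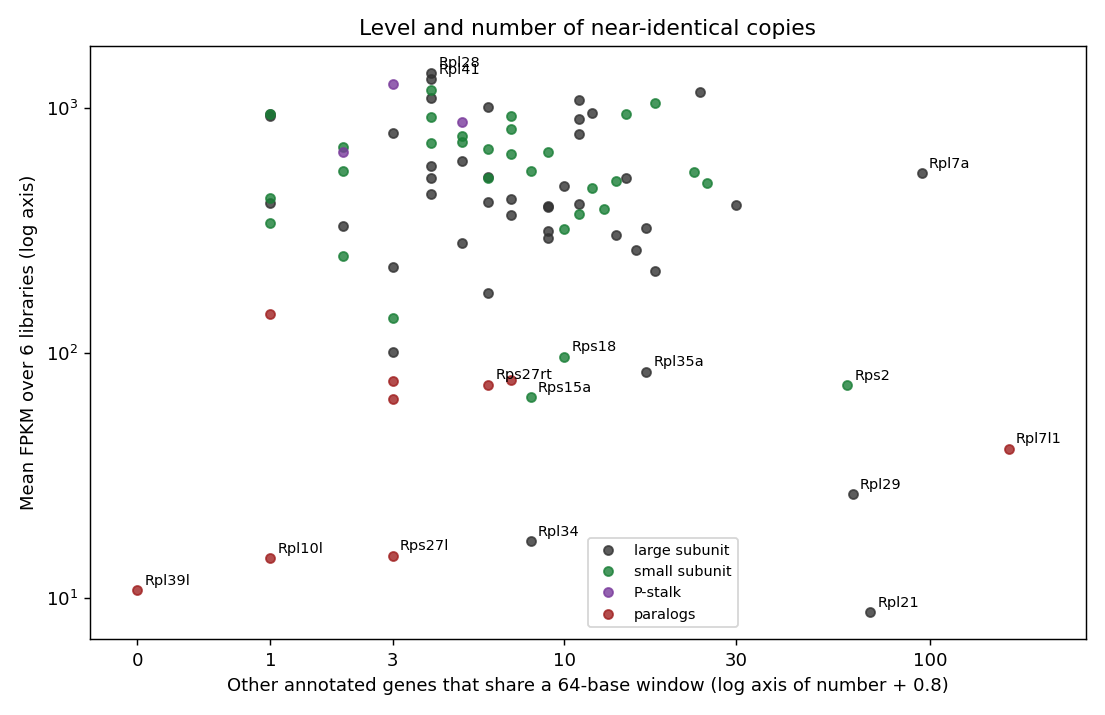
Mean FPKM over the 6 libraries (log axis) against the number of other annotated genes that share at least 1 window of 64 bases with the gene's transcript (log axis of the number plus 0.8); each point is a gene, coloured by subunit, with 1 gene not drawn. Rpl21, Rpl29 and Rps2 share windows with many genes and have low values. Rpl7a shares windows with 95 genes and has 538.8 FPKM, and Rpl34 is low with 8. A gene that shares a window need not be a near-identical copy.

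FPKM also divides by the gene length the authors used, which the values imply. For Rps15a that length was 5199 bases and for Rps20 3488, against a median of 799 in the set and 3549 over all genes tested. Rps15a and Rps20 had means of 65.7 and 139 FPKM. Levels of single genes within the set depend on these lengths. Within a gene the same length divides the values of both groups, though fold changes followed length across genes, as described below.

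No ribosomal protein gene passed the test between ISRIB and Control, and nearly all were slightly higher with ISRIB. limma on log2(FPKM + 0.5) was run over 12922 genes (those whose FPKM averaged 1 or more), and 87 of them were ribosomal protein genes. At an adjusted p under 0.05 it called 0 genes (0% of those tested), and 0 of the set. The smallest adjusted p was 0.0608. Of the 87, 84 were higher and 3 lower, where 51.8% of all genes tested were higher. The median log2 fold change, the difference between the group means of log2 values, was 0.17, against 0.005 over all genes. At an unadjusted p under 0.05, 73 of the 87 were higher (8.71% of all genes) and 1 was lower (7.73%). The ISRIB libraries all lay above the Control libraries in 71 of the 87, where the share over all genes tested was 10.8%. They all lay below in 1, against 12.0%. The genes share libraries and move together, so these counts are not counts of independent events.

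Shorter genes had higher fold changes across the whole table. Spearman's rho between implied length and log2 fold change was −0.361 over the 12922 genes and −0.242 over the 78 canonical genes, all measured in the same 6 libraries. With a smooth trend on length taken out of every library, the 87 genes had a median of 0.08, with 77 higher and 10 lower (50.3% of all genes were higher). Of the 87, 34 lay wholly above Control (9.61% of all genes). After quantile normalization it was 0.06, with 74 higher, 13 lower (47.8% of all genes were higher) and 26 wholly above (8.49%). After rescaling each library to the same FPKM sum (TPM) it was 0.12, with 81 higher, 6 lower and 56 wholly above (5.51%). Under TPM rescaling 36.0% of all genes were higher and their median was −0.05. The correction left 0.06 as the median of the 50 canonical genes under 1000 bases and 0.11 for the 28 longer ones, whose uncorrected medians were 0.19 and 0.17. Whether the length trend is technical was not tested.

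**Figure D3:**
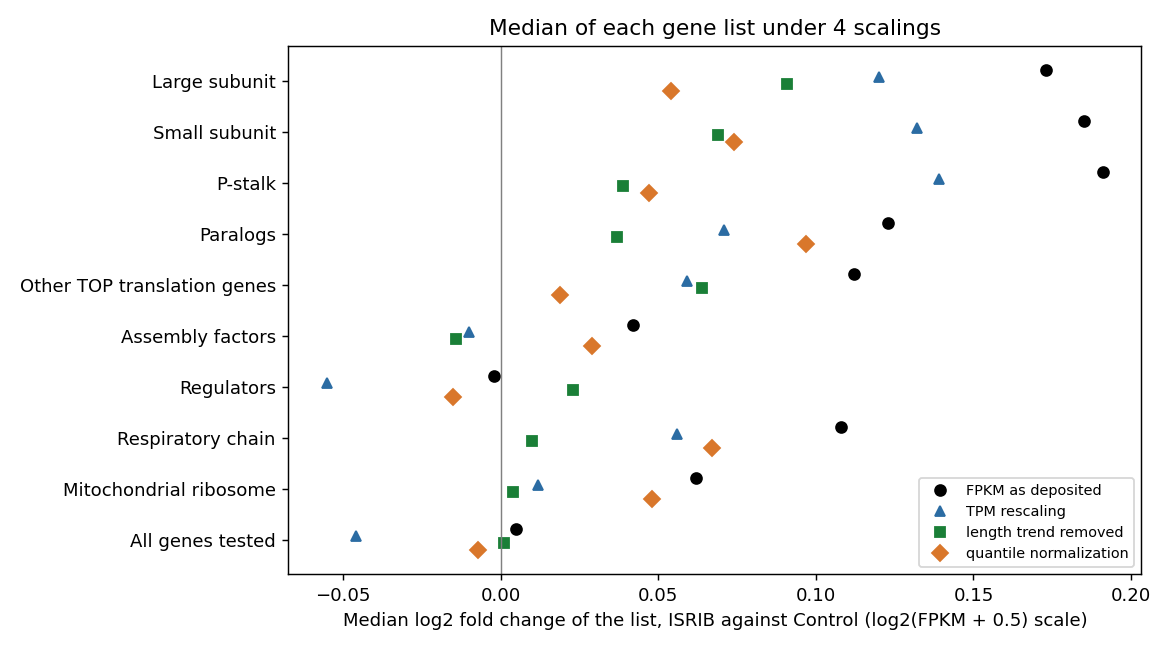
Median log2 fold change between ISRIB and Control (log2(FPKM + 0.5) scale) of each gene list, under the FPKM as deposited (circles), TPM rescaling (triangles), removal of the length trend (squares) and quantile normalization (diamonds); rows are gene lists and the last row is all genes tested. The ribosomal lists lie between 0.12 and 0.19 with the deposited values and between 0.04 and 0.09 after the length trend was removed, and the regulators and all genes lie near 0.

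A test on reads worked back from the FPKM (limma's voom) called 120 genes, 40 higher (0.310% of those tested) and 80 lower (0.619%). The set held 5 of them: Rps27a, Rps25, Rpl24 and Rpl38 were higher and Rpl21 lower. The voom adjusted p was 0.0216 for Rpl21 and 0.0387 to 0.0455 for the others, where limma on the deposited FPKM gave 0.0608 and 0.0987.

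In the large subunit, 41 of 43 genes were higher with ISRIB, with a median log2 difference of 0.17, and 34 were wholly above Control (10.8% of all genes). After quantile normalization 35 were higher, 8 lower and 13 wholly above (8.49% of all genes), and after the length correction 38 were higher, 5 lower and 19 wholly above (9.61%). Rpl24, which forms a bridge between the subunits, had 546, 546 and 574 FPKM in Control and 649, 643 and 679 in ISRIB. Its log2 fold change was 0.24 (SE 0.0432, limma adjusted p = 0.0987; 0.0387 to 0.294 over the alternatives). Rpl38, which takes part in the translation of Hox mRNAs in the embryo, had 199.6, 202.4 and 210.9 FPKM in Control and 238.4, 237.3 and 255.6 in ISRIB. The log2 difference was 0.25 (SE 0.0452, limma adjusted p = 0.0987; 0.0455 to 0.294 over the alternatives). In both genes every ISRIB library was above every Control library, and the spread within groups was small. After the length trend was removed the log2 fold changes were 0.119 for Rpl24 and 0.125 for Rpl38.

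Rpl34, at the low level given above, had a log2 fold change of 0.37 (SE 0.07, limma adjusted p = 0.0987) with groups that did not overlap. Rpl10, the protein that completes the large subunit late in its maturation, had 899.7 ± 22.5 FPKM in Control and 1004 ± 50.5 in ISRIB (SD, n = 3 each), with a log2 difference of 0.16. Rpl5 and Rpl11 form a complex with 5S ribosomal RNA that can bind MDM2, the inhibitor of p53. Rpl5 had 371.3 ± 27.2 and 412.1 ± 7.12 FPKM, and Rpl11 had 269.6 ± 18.1 and 316.8 ± 6.24. The log2 fold changes were 0.15 for Rpl5 and 0.23 for Rpl11 (limma adjusted p = 0.242 and 0.119). Rpl39, chosen after its values were seen, lines the exit tunnel and had a log2 fold change of 0.33 (limma adjusted p = 0.119). Rpl41 had overlapping groups and a log2 fold change of 0.04 that was −0.01 after TPM rescaling, −0.06 after quantile normalization and −0.12 after the length correction.

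With the deposited values, Rpl21 was the single gene of the set that lay wholly below Control (12.0% of all genes). After the length correction 3 genes of the set lay wholly below, and the share of all genes there is not given here. Rpl21 had 12.2 ± 2.64 FPKM in Control and 5.18 ± 0.443 in ISRIB (SD, n = 3 each), from a mean of 602 reads. The log2 fold change was −1.15 (SE 0.136, 95% interval −1.47 to −0.84) with a limma adjusted p of 0.0608. All 3 ISRIB libraries lay below all 3 Control libraries. Over the alternatives the log2 fold change was −1.25 to −0.99 and the adjusted p 0.0216 to 0.274. It passed when only genes averaging 5 FPKM or more were tested (adjusted p = 0.0412; 0.0327% of genes called lower), with array weights (0.0402; 0.0619%), with the replicate number as a block (0.0245; 0.0155%) and in voom (0.0216). Since 68 annotated pseudogenes share sequence with Rpl21, reads from the gene and its copies may not be told apart.

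In the small subunit all 32 genes were higher with ISRIB, with a median log2 difference of 0.19, and 29 were wholly above Control (10.8% of all genes). After quantile normalization 28 were higher, 4 lower and 10 wholly above (8.49% of all genes), and after the length correction 31 were higher, 1 lower and 13 wholly above (9.61%). Rps27a, made as a fusion with ubiquitin, had 388.7, 428.6 and 441.9 FPKM in Control and 503.3, 517.5 and 549.5 in ISRIB. It differed by 0.32 on the log2 scale (SE 0.0591, limma adjusted p = 0.0987; 0.0387 to 0.294 over the alternatives). Rps25, a protein used by several viral internal ribosome entry sites, had 495.8, 496.4 and 522.7 FPKM in Control and 583.4, 587.5 and 636.0 in ISRIB. The log2 difference was 0.25 (SE 0.0487, limma adjusted p = 0.0987; 0.0447 to 0.297 over the alternatives). The groups did not overlap in either gene. Rps12 had 434.5, 450.0 and 477.0 FPKM in Control and 541.4, 515.1 and 545.4 in ISRIB, with a log2 difference of 0.24 (SE 0.0484, limma adjusted p = 0.101).

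Rps6, the substrate of the S6 kinases downstream of mTOR, had 477.4, 466.5 and 502.1 FPKM in Control and 538.1, 506.0 and 523.6 in ISRIB. The log2 fold change of Rps6 was 0.12 (limma adjusted p = 0.261), and it was −0.06 after quantile normalization. Fau, which encodes a ubiquitin-like protein fused to a small subunit protein, had 403.2 ± 22.8 and 455.4 ± 4.06 FPKM (SD, n = 3 each), with a log2 difference of 0.18 that was −0.02 after quantile normalization. In Rps6 and in Fau the groups did not overlap. Rps28, chosen after its values were seen, had a log2 fold change of 0.36 (limma adjusted p = 0.122). The ratio of the summed FPKM of small to large subunit genes, with lengths as the authors used them, was 0.804, 0.816 and 0.81 in Control and 0.823, 0.826 and 0.834 in ISRIB.

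The P-stalk recruits elongation factors to the ribosome. All 3 of its genes were higher with ISRIB, wholly above Control with the deposited values (10.8% of all genes). After TPM rescaling 1 of the 3 was wholly above (5.51% of all genes). After quantile normalization (8.49%) or the length correction (9.61%) it was 0 of the 3. Rplp0, the base of the stalk, had 828.4, 806.2 and 851.7 FPKM in Control and 936.8, 857.3 and 974.9 in ISRIB, with a log2 difference of 0.15 (limma adjusted p = 0.238). Rplp1 had a log2 fold change of 0.19 (limma adjusted p = 0.204). Rplp2 had 582.6, 607.7 and 654.9 FPKM in Control and 707.4, 671.0 and 727.7 in ISRIB, with a log2 difference of 0.19 (limma adjusted p = 0.166). After the length correction the medians of the stalk, the large and the small subunit were 0.04, 0.09 and 0.07.

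**Figure D4:**
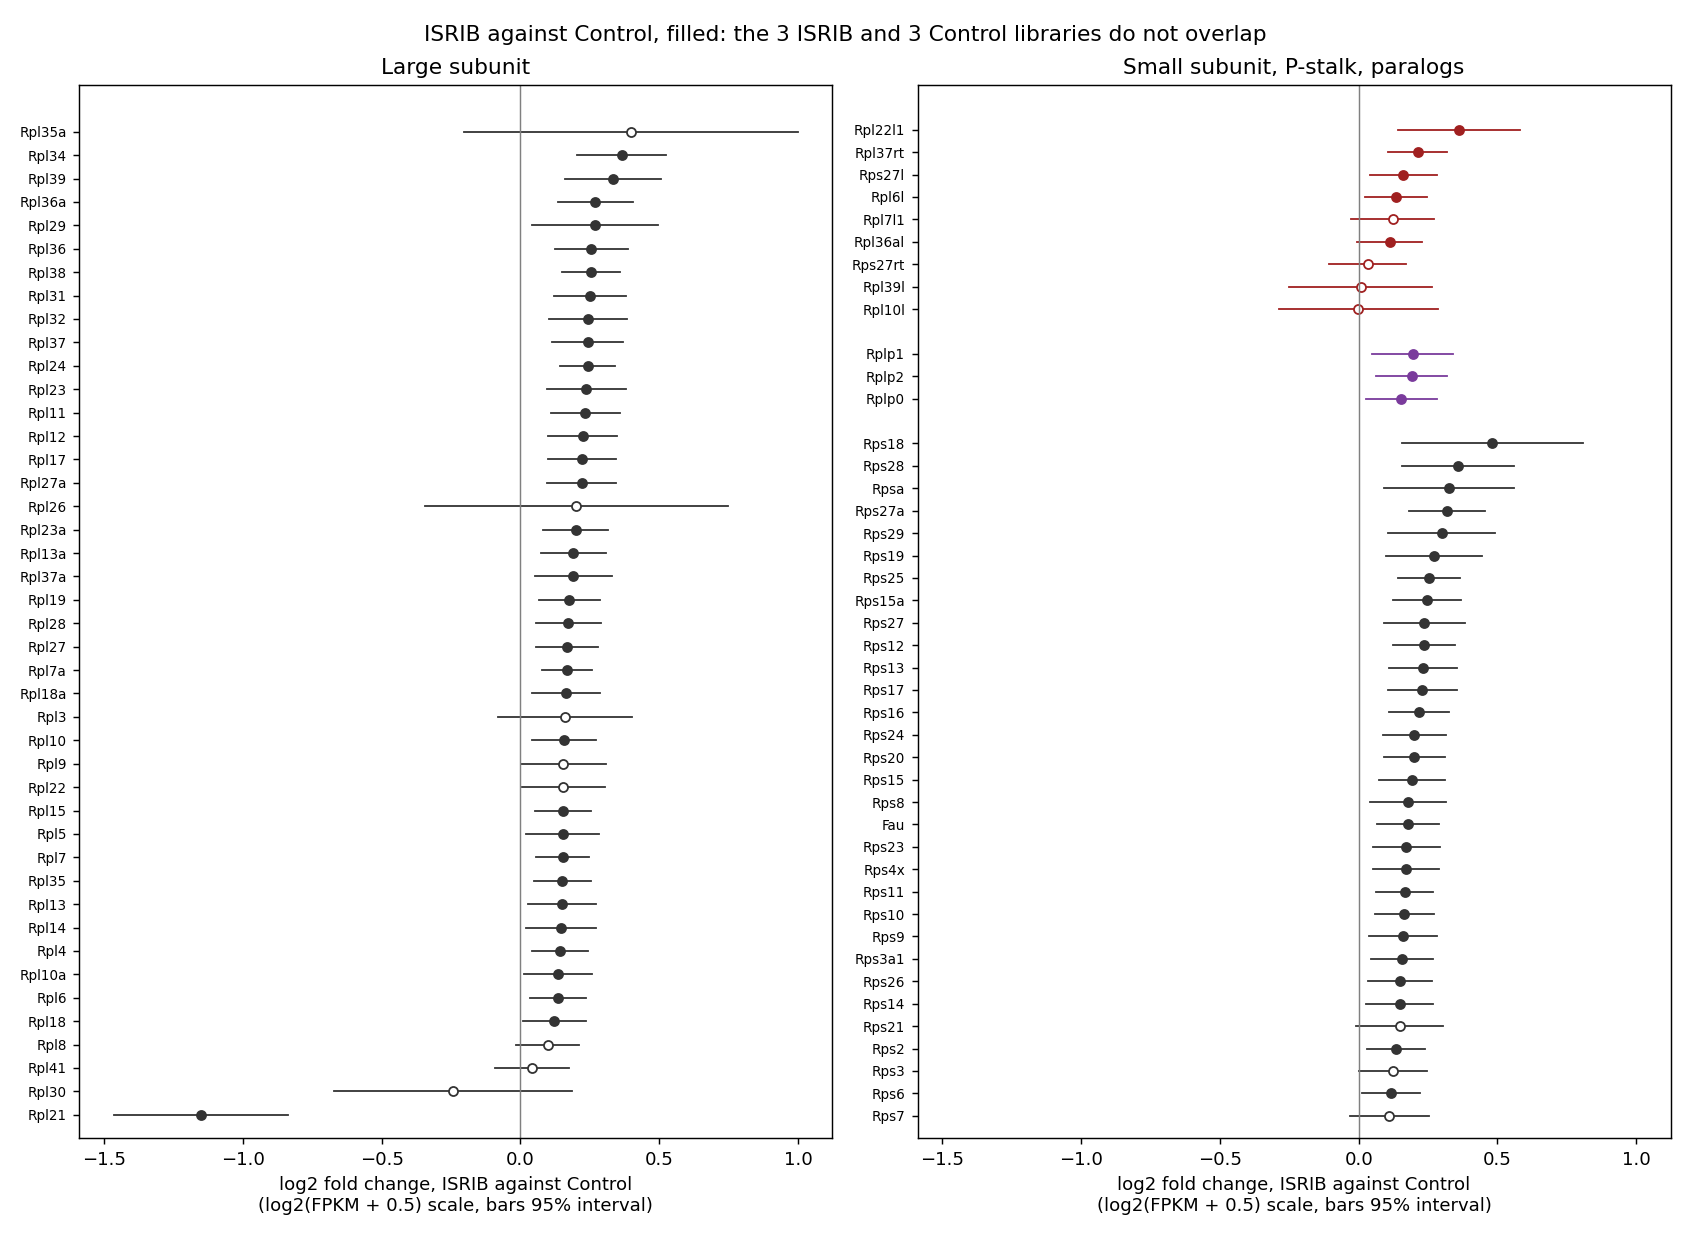
log2 fold change of ISRIB against Control for each gene tested (points) with its 95% interval (bars) on the log2(FPKM + 0.5) scale, large subunit at the left, small subunit, P-stalk (purple) and paralogs (red) at the right; filled points have groups that do not overlap, and 1 gene is not drawn. The 31 small subunit genes drawn lie right of 0, and Rpl21 at −1.15 lies far left of the others.

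The canonical genes kept close to a common change, and a few varied between libraries of the same group. Of the 78, 67 had a log2 fold change within 0.1 of the canonical median. The median SD of log2 values within groups was 0.0692, against 0.0881 over all genes tested, and 5 canonical genes had an SD over 0.2. These were Rpl21, Rpl26, Rpl30, Rpl35a and Rps18. Rpl26, Rpl35a and Rps18, and with them Rpsa and Rpl3, are named after their values were seen. Rpl35a had 46.3, 102 and 72.2 FPKM in Control and 114.0, 77.9 and 88.5 in ISRIB. Rpl26 had 122.7, 188.8 and 170.8 in Control and 262.4, 140.1 and 164.0 in ISRIB. In both the groups overlapped, and the log2 fold change of Rpl26 was 0.20 with all libraries and −0.06 without ISRIB replicate 1. Rpl30 had 279.4, 354.4 and 337.5 FPKM in Control and 271.2, 361.3 and 205.3 in ISRIB, with a log2 difference of −0.24 (SE 0.186, limma adjusted p = 0.55). Its groups overlapped, with ISRIB replicate 3 lowest and ISRIB replicate 2 highest. Leaving out a library gave −0.448 (without ISRIB replicate 2) to −0.041 (without ISRIB replicate 3). For Rpl35a the log2 difference was 0.105 without Control replicate 1 and 0.670 without Control replicate 2.

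Rps18 had 63.4, 82.0 and 96.5 FPKM in Control and 102.9, 107.9 and 123.9 in ISRIB, with a log2 difference of 0.48 (SE 0.141, limma adjusted p = 0.167). Rpsa, also known as the laminin receptor, had 474.0, 505.6 and 473.9 in Control and 545.4, 563.8 and 725.6 in ISRIB, with a log2 difference of 0.32 (limma adjusted p = 0.188). Rpl3, at the peptidyl transferase centre, had 426.0, 437.5 and 492.3 in Control and 458.6, 467.1 and 598.2 in ISRIB. In Rpsa and Rpl3 the highest value was that of ISRIB replicate 3. Without that library the log2 difference was 0.195 for Rpsa and 0.037 for Rpl3, and that of Rps18 was 0.321 without Control replicate 1.

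The other canonical genes with overlapping groups, also named after their values were seen, were Rpl8, Rpl9, Rpl22, Rps3, Rps7 and Rps21. Their log2 differences were 0.10 to 0.16, and those of Rpl8, Rpl9 and Rps7 were −0.03, −0.01 and −0.02 after quantile normalization. In each the overlap came from Control replicate 3, the highest of its group: Rpl8 had 855.5, 883.6 and 941.8 FPKM in Control and 945.2, 941.6 and 981.5 in ISRIB. Rpl8 was at −0.006 after the length correction.

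Genes that differ in copies and in length are set side by side here. Rpl7a, Rps2, Rps15a and Rps20 were likewise named after their values were seen. Rpl7a, which shared windows with 95 genes, had 503.7, 506.8 and 511.6 FPKM in Control and 569.7, 556.8 and 584.1 in ISRIB, with a log2 difference of 0.17. Rps2, which shared windows with 60, was at 0.13. The groups did not overlap in either gene. After quantile normalization Rpl7a was at 0.001, and after the length correction it was at 0.087 and Rps2 at 0.041. Rps15a and Rps20, the genes of long implied length, had log2 differences of 0.24 and 0.20 without overlap, and 0.27 and 0.20 after the length correction.

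Library by library, the set moved together. The genes took 3.395%, 3.508% and 3.726% of the reads in Control and 3.957%, 3.927% and 4.165% in ISRIB. As a share of summed FPKM they were 11.96%, 12.31% and 12.95% in Control and 13.45%, 13.35% and 13.98% in ISRIB. The median canonical gene had 461.6, 466.9 and 502.6 FPKM in Control and 541.4, 530.9 and 577.7 in ISRIB. Control replicate 3 was the highest of its group and ISRIB replicate 3 of the other, and the groups did not overlap on any of these measures. Relative to each gene's Control mean, the median deviation of the canonical genes was −0.06, −0.02 and 0.08 on the log2 scale in Control and 0.17, 0.15 and 0.23 in ISRIB. The median log2 fold change of the 87 genes was 0.14 without Control replicate 1 and 0.22 without Control replicate 3. In bulk ovary, a different proportion of cells that make many ribosomal proteins and a different level per cell cannot be told apart.

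**Figure D5:**
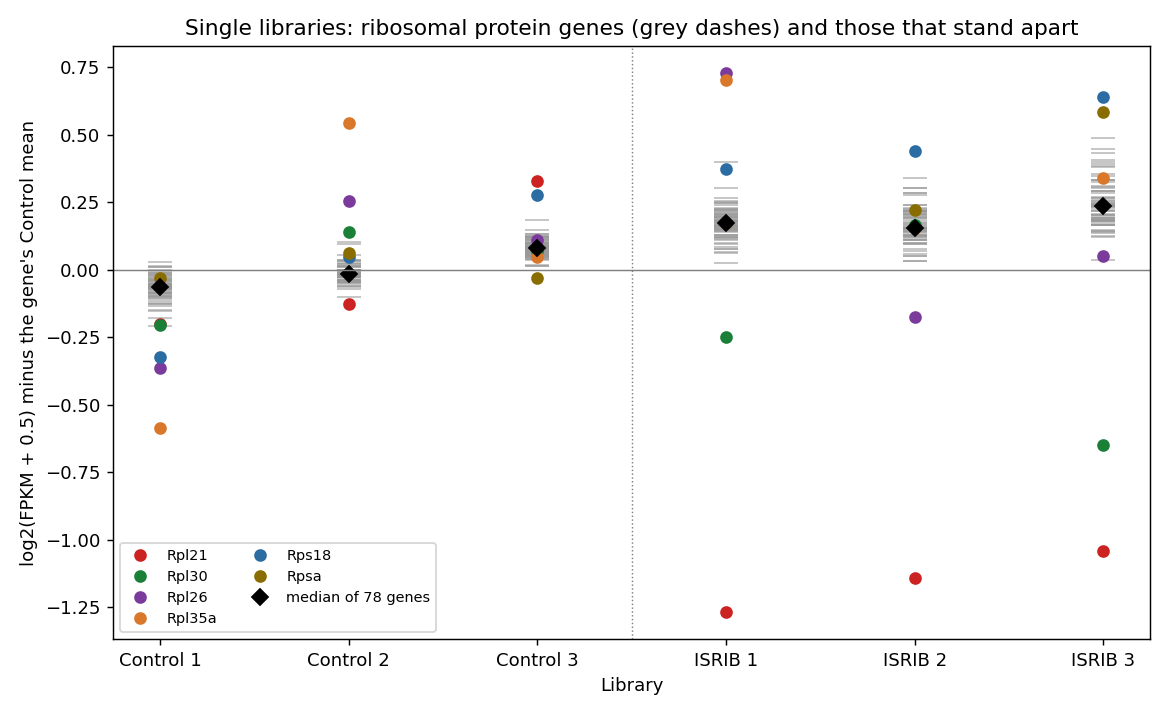
Deviation of each canonical gene from its Control mean (log2(FPKM + 0.5)) in the 6 libraries; grey dashes are genes, black diamonds their median, and coloured points are Rpl21, Rpl30, Rpl26, Rpl35a, Rps18 and Rpsa. The median lies between −0.06 and 0.08 in Control and between 0.15 and 0.23 in ISRIB, and Rpl21 lies far below the median in all 3 ISRIB libraries.

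Of the 12 paralogs 9 were tested, with 8 higher and 1 lower and a median log2 fold change of 0.12. After the length correction 5 were higher and 4 lower. Rpl3l, the muscle paralog of Rpl3, Rpl32l and Rps23rg1 had mean levels under 1 FPKM and were not tested. Rpl3l had at most 0.142 FPKM in any library, from a mean of 4 reads, Rpl32l at most 1.17 and Rps23rg1 at most 0.364.

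Rpl22l1, the paralog of Rpl22, had 61.2, 65.9 and 73.6 FPKM in Control and 75.6, 87.3 and 95.9 in ISRIB. Its log2 fold change was 0.36 (SE 0.0955, limma adjusted p = 0.136). Of the summed FPKM of Rpl22 and Rpl22l1, the paralog made up 41.2%, 40.9% and 41.5% in Control and 42.6%, 44.3% and 47.3% in ISRIB. This share did not overlap between the groups, and no test was made of it. Rpl22l1 was the paralog that came closest to the level of its parent, per length.

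Rpl36al, an autosomal paralog of the X-linked Rpl36a, made up 26.2%, 26.9% and 26.2% of the pair in Control and 26.1%, 24.6% and 22.4% in ISRIB. Its log2 fold change was 0.11, and −0.03 after the length correction. The retrogenes Rpl6l, Rpl37rt and Rps27rt, which shared 72.5%, 38.9% and 90.7% of their windows with other genes, were at 73.7 ± 3.76, 60.2 ± 3.08 and 73.2 ± 5.17 FPKM in Control (SD, n = 3 each). In ISRIB they were at 80.9 ± 1.78, 69.8 ± 0.774 and 74.8 ± 3.36. The reads of a retrogene and of the genes it shares windows with may not be told apart. Rps27rt made up 10.6%, 10.5% and 10.4% of its pair with Rps27 in Control and 9.32%, 9.42% and 9.01% in ISRIB. The mean share of Rpl6l in its pair with Rpl6 was 16.4% in both groups. For Rpl37rt and Rpl37 it was 16.6% in Control and 16.4% in ISRIB. The log2 fold change of Rps27rt itself was 0.03, and −0.14 after the length correction, −0.02 after TPM rescaling and −0.01 after quantile normalization.

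Rpl10l and Rpl39l, known as testis paralogs that replace X-linked parents in male germ cells, were detected at low levels. Rpl10l had 14.4, 13.3 and 15.5 FPKM in Control and 16.2, 15.9 and 11.6 in ISRIB. Rpl39l had 10.7, 10.3 and 11.00 in Control and 11.02, 12.5 and 8.88 in ISRIB, and shared no window with another gene. The groups overlapped in both genes, with log2 fold changes of −0.001 and 0.007 whose signs changed with the scaling. Rpl39l made up 3.46%, 3.2% and 3.01% of its pair with Rpl39 in Control and 2.8%, 3.07% and 1.99% in ISRIB. Rps27l, a p53-responsive paralog of Rps27, had 13.5, 14.4 and 14.1 FPKM in Control and 16.3, 15.2 and 15.5 in ISRIB, with a log2 difference of 0.16 (limma adjusted p = 0.203) without overlap. Rpl7l1, a distant relative of Rpl7, had 38.8 ± 1.86 and 42.4 ± 3.42 FPKM (SD, n = 3 each) with overlap. It shared windows with 162 genes, of which 2 were annotated pseudogenes, through 5.31% of its windows.

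Genes around the ribosome were read from lists. Among 24 genes listed by name for mRNAs with a TOP motif, mostly translation genes, 20 were higher and 4 lower. The median log2 difference was 0.11, and 12 were wholly above Control (10.8% of all genes). The motif itself was not looked for in this list. After quantile normalization 12 of the 24 were higher and 12 lower (47.8% of all genes were higher), with 5 wholly above (8.49% of all genes) and 3 wholly below. After the length correction 6 were wholly above (9.61% of all genes) and 1 below. The shares of all genes wholly below under these scalings are not given here. Rack1, a ribosomal protein of this list that sits on the head of the small subunit, had 619.5 ± 31.2 FPKM in Control and 666.0 ± 15.8 in ISRIB (SD, n = 3 each), with a log2 difference of 0.10 that was −0.04 after quantile normalization. Tpt1, a TOP mRNA of high level, had a log2 fold change of 0.20 (limma adjusted p = 0.126), and Npm1, a nucleolar chaperone of ribosomal proteins, 0.18 (0.119). Eef2, the translocation factor, was at −0.05 with overlapping groups. Imp3, a component of the small subunit processome, was at 0.25 (limma adjusted p = 0.0876).

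Of 20 chaperones and late assembly factors of ribosomal proteins, 13 were higher and 7 lower, with a median of 0.04. After TPM rescaling 8 were higher and 12 lower, where 36.0% of all genes were higher, and after the length correction 9 and 11, where 50.3% were. Of the 20, 1 was wholly above Control (10.8% of all genes) and 1 wholly below (12.0%). Sbds, which releases eIF6 from the large subunit, was wholly above, with 26.5 ± 1.97 and 31.4 ± 2.12 FPKM (SD, n = 3 each). Sbds differed by 0.24 on the log2 scale (limma adjusted p = 0.163). Lsg1, a GTPase of late large subunit maturation, was wholly below, at −0.04. Of 15 regulators of ribosomal protein mRNAs and promoters, 7 were higher and 8 lower, with a median of −0.002, and after the length correction 12 were higher and 3 lower. Larp1, which binds TOP mRNAs, was at 30.8 ± 0.882 and 29.1 ± 1.08 FPKM, with a log2 difference of −0.08 (limma adjusted p = 0.426). Tial1, an RNA-binding protein of stress granules that binds TOP mRNAs, had 16.55 ± 0.511 and 20.02 ± 0.524 FPKM without overlap. Its log2 fold change was 0.27 (limma adjusted p = 0.0987; 0.0367 to 0.294 over the alternatives), and voom called it.

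Other lists of nuclear genes are set beside the ribosomal protein genes, with their implied lengths. Of 90 respiratory chain subunits tested, with a median implied length of 777 bases, 80 were higher and 10 lower, with a median log2 difference of 0.11. After the length correction 50 were higher and 40 lower, with a median of 0.01. The 78 mitochondrial ribosomal proteins had a median implied length of 1563 bases, against 799 in the cytosolic set. Among these 78, 64 were higher and 14 lower, with a median of 0.06, and after the correction 40 and 38, with a median of 0.004. The corrected median of the cytosolic ribosomal protein genes was 0.08. After quantile normalization the medians were 0.067 for the respiratory chain (72 of 90 higher), 0.048 for the mitochondrial ribosomal proteins (62 of 78 higher) and 0.061 for the 87 cytosolic ribosomal protein genes. The differences between these medians were not tested. Of the canonical genes, 30 hold an annotated small nucleolar RNA gene within their bounds, with a median log2 difference of 0.185, and the 48 others had 0.176.

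The tissue label was checked against markers. Oocyte markers (10 genes, Zp2 and Zp3 among them) summed to 1440 to 1610 FPKM in Control and 1560 to 1770 in ISRIB, and granulosa markers (8) to 460 to 551 and 509 to 614. Of the 7 granulosa markers tested, 3 were higher and 4 lower, with a median log2 difference of −0.008. Stroma and theca markers (8) summed to 649 to 693 and 655 to 742, and surface epithelium markers (4) to 148 to 163 and 145 to 153. Of these cell type lists, no marker was at 0 in every library. Endothelial markers (5) summed to 108 to 117 in Control and 88.3 to 99.6 in ISRIB, all 5 lower and 4 wholly below Control (12.0% of all genes). Pericyte markers (4) summed to 39.1 to 46.6 and 43.5 to 47.6, and immune markers (5) to 18.1 to 20.3 and 16.3 to 19.5. Wholly below Control were also 2 of 7 granulosa, 2 of 3 immune, 1 of 6 stroma and theca and 1 of 4 pericyte markers tested. Erythroid markers (6) summed to 40.5 to 75.3 in Control and 72.4 to 328 in ISRIB, where the 328 was ISRIB replicate 1. Without that library the median log2 fold change of the 87 genes was 0.18. The median log2 difference of the oocyte markers was 0.10, with 7 of 10 higher (51.8% of all genes) and 2 wholly above Control (10.8%). The part of oocyte and endothelial RNA in the ribosomal protein values was not tested.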

How the data were processed

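Total RNA of cultured mouse ovary, 3 Control and 3 ISRIB libraries, was sequenced after preparation with a universal RNA-seq kit, per the labels' protocols. The deposited unit is FPKM, made by the authors, with a column for each library. The mouse build mm10 and the tools fastp, HISAT2, HTSeq, DESeq2 and R 3.2.0 are listed without roles, per the submitters' processing notes. No source used here gives the annotation, the strand setting, the treatment of reads with several matches or the library total. Reads of overlapping, antisense and copied genes may therefore be mixed.

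Whole reads were worked back from the FPKM (100% of values whole, tolerance 0.01 read, largest distance 4.778e-05) and summed to 34474821 to 38002135 per library. On simulated reads the step returned the exact reads for 97.64% of 2881 genes. For 1967 genes with a mean of at least 10 reads it was 98.63%. No pair of replicates was a single library (chi-square per gene 8.932 to 23.06).

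The test was limma 3.58.1 in R 4.3.3 on log2(FPKM + 0.5), a scale that understates the change of low genes, with an intensity trend, two-sided, with Benjamini-Hochberg adjustment over 12922 genes, those that averaged 1 FPKM or more. On simulated data the fit called 62 of 100 genes with a log2 change of 0.5 and 94 of 100 with a change of 1. It also called 4 of 12722 genes without a change. Changes as small as the median of the set were not simulated. The alternatives were pseudocounts of 0.1 and 1, 2 other filters, 4 scalings (TPM, median of ratios, quantile, and a loess trend on implied gene length with a span of 0.5), a replicate block, array weights, robust or untrended empirical Bayes, voom on the worked-back reads and leaving out each library. GENCODE M21 (GRCm38, which is mm10) gave positions, copies and small nucleolar RNA genes. Python 3.11.15, pandas 2.3.3 and matplotlib 3.10.9 were used for tables and plots.

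The members, the gene lists, the length comparison and the rule for named genes were chosen with earlier results of these data known. The rule names up to 3 genes with the smallest p in each direction for each subunit and the stalk, every paralog, members whose mean is under the canonical median divided by 10, the 5 canonical genes of highest level, 10 genes of known roles, and up to 4 genes in each direction of the other lists. Not every gene that it names is printed, and the values of 2 genes are not reported here.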

Additional observations from a re-analysis of the deposited data

How the results depend on the processing

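The count of genes called over the whole table was 0 in the reported analysis and in the alternatives other than these: 8 with a mean FPKM of at least 5, 16 with array weights, 11 with the replicate number as a block and 120 with voom. The set held 1, 1, 1 and 5 of them. Leaving out each library in turn gave 0 genes and 0 of the set each time. The gene of the set called with the replicate block was Rpl21 (limma adjusted p = 0.0245). The numbers share no stated animal or day, and same-numbered libraries did not deviate together (correlations of deviations −0.19, −0.0909 and 0.192). Libraries numbered 1 and 2 did not correlate best with their own number.

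The median log2 fold change of the 87 genes was 0.17 and moved to 0.061 with quantile normalization and 0.077 with the length trend removed. Leaving out a library gave 0.144 to 0.221. Of 1385 log2 fold changes of 73 genes that the rule or the text names under the alternatives, 1343 kept their direction and side of the threshold, 9 passed it and 33 in 17 genes changed sign. After quantile normalization Fau was at −0.018, Rack1 at −0.041, Rps6 at −0.058, Rpl41 at −0.060, Rps27rt and Rpl9 at −0.009, Rpl8 at −0.032, Rps7 at −0.020 and Rpl10l at 0.001. After the length correction Larp4b was at 0.020, Sp1 at 0.008, Rpl8 at −0.006, Rpl36al at −0.034, Rpl39l at −0.098, Rpl41 at −0.116, Rps26 at −0.010 and Rps27rt at −0.142. After TPM rescaling Rpl39l was at −0.045, Rpl41 at −0.011 and Rps27rt at −0.020. Rpl10l was at 0.038 with array weights and 0.001 with voom. With a library left out in turn, the ranges were Eif3l −0.051 to 0.008, Vim −0.098 to 0.008, Rpl26 −0.061 to 0.390, Rpl10l −0.083 to 0.15, Rpl39l −0.102 to 0.135 and Rps27rt −0.021 to 0.080. Rpl26 was negative only without ISRIB replicate 1, Vim positive only without the same library and Eif3l positive only without Control replicate 3. The cause of these changes of sign was not tested.

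Depth bears on the genes of few reads: Rpl3l, with a mean of 4 reads, was not tested.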
